A study of Arabidopsis thaliana with 12 samples.

Results

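WRKY proteins are plant transcription factors, and the data described here are RNA levels of the WRKY gene family in Arabidopsis thaliana seedlings. The seedlings were wild type or mutant in the gene of the peroxisomal protease LON2, that of the autophagy protein ATG2, or both. The members were taken by name from a list of 60 WRKY locus identifiers, and the family was chosen for description with earlier results of these data known. The deposited expression table holds 59 of the 60, among 26093 genes in all, and WRKY12 was not analysed here. Another 7 WRKY genes of the table are outside the list and are not described. Of the 59, 55 reached 1 FPKM (fragments per kilobase of gene, scaled to the depth of the library) in at least 3 libraries and were tested. WRKY13, WRKY41, WRKY42 and WRKY74 did not reach that level.

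There were 4 genotypes, each with 3 libraries that the series design calls biological replicates. They were wild-type Col-0, the single mutants atg2-4 and lon2-8, and the double mutant lon2-8 atg2-4, the mutants being in the Col-0 ecotype and each represented by 1 allele. RNA came from whole seedlings kept in continuous light on plant nutrient medium, aged 6 days by the series design and 8 days by the growth protocol, a difference that could not be settled. For the single mutants the sample titles and the genotype tags name opposite mutants, so the columns of the deposited table were read by the genotype in their own names, and LON2 RNA, given further on, was read by group.

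WRKY factors carry a DNA-binding domain named for its first amino acids, together with a zinc finger, and they bind the W-box, a short DNA element built around TTGAC. They are sorted into groups I, II (subgroups a to e) and III by the number of such domains and the kind of zinc finger. Many are induced by pathogens, salicylic acid or leaf ageing, several are phosphorylated by MAP kinases or bound by small VQ motif proteins, and many W-boxes lie in promoters of WRKY genes themselves. LON2 is a protease and chaperone of the peroxisome matrix, and ATG2 moves lipid to the growing autophagosome membrane, so that the mutants affect peroxisome protein handling and autophagy.

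The stretch before each gene was read from the RefSeq sequence of assembly TAIR10.1, whose gene bounds are those that the deposited values were divided by. Windows were 300 bases long and ended at the base before the annotated start of the gene. They were searched for TTGACC and TTGACT on both strands, and overlapping matches would each be counted. At least 1 match was found in 24 of the 59 members of the table (40.7%) and in 32.1% of 26089 genes with a window. At least 2 matches were found in 10 members (16.9%) and in 7.5% of all genes. The sequences below are shown as examples of both ends of that count: 4 members with 2 or 3 matches and 2 with none, all of which differed between genotypes. They run 5′ to 3′ on the strand of the gene, and capitals mark the W-box letters, which read GGTCAA or AGTCAA where the match is on the other strand.
WRKY33: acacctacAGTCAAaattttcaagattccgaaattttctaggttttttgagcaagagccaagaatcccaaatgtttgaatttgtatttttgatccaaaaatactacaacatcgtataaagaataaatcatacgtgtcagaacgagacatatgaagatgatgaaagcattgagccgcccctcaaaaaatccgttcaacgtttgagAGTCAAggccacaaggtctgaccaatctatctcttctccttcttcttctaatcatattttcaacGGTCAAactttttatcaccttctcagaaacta
WRKY30: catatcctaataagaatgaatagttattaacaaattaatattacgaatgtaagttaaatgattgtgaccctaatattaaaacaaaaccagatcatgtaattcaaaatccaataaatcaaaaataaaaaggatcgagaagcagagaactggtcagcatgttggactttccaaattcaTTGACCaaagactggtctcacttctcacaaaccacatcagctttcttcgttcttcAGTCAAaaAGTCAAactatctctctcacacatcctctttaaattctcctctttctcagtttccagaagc
WRKY53: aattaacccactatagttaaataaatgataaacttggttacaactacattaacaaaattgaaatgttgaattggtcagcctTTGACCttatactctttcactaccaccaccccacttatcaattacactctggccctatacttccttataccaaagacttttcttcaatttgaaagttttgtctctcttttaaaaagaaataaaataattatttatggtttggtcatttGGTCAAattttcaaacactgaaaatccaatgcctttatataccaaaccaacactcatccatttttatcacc
WRKY62: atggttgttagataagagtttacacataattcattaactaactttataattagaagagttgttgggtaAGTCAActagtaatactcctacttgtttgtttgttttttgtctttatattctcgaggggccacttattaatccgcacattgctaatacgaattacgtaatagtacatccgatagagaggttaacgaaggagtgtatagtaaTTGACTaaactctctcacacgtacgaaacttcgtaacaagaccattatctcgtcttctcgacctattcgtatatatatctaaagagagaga
WRKY46: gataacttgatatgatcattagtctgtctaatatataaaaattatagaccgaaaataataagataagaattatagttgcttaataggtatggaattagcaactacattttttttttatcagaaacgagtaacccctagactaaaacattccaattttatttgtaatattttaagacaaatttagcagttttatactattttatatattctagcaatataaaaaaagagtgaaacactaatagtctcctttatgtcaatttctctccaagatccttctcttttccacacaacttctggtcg
WRKY70: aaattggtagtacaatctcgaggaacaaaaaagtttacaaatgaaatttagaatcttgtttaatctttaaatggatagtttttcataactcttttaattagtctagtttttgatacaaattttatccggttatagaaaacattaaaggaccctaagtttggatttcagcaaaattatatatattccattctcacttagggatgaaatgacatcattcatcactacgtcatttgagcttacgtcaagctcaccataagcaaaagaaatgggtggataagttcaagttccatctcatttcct
These windows are, in TAIR10.1, chr2:16107935-16108234, plus strand for WRKY33 and chr5:8154711-8155010, minus strand for WRKY30, which hold 3 matches each, the most in any member. They are chr4:12393983-12394282, minus strand for WRKY53 and chr5:352096-352395, minus strand for WRKY62, which hold 2 each. For WRKY46 the window is chr2:19044956-19045255, minus strand and for WRKY70 chr3:20910624-20910923, minus strand, and neither holds these letters. A match describes the letters only, and the lack of one says nothing about binding.

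**Figure D1:**
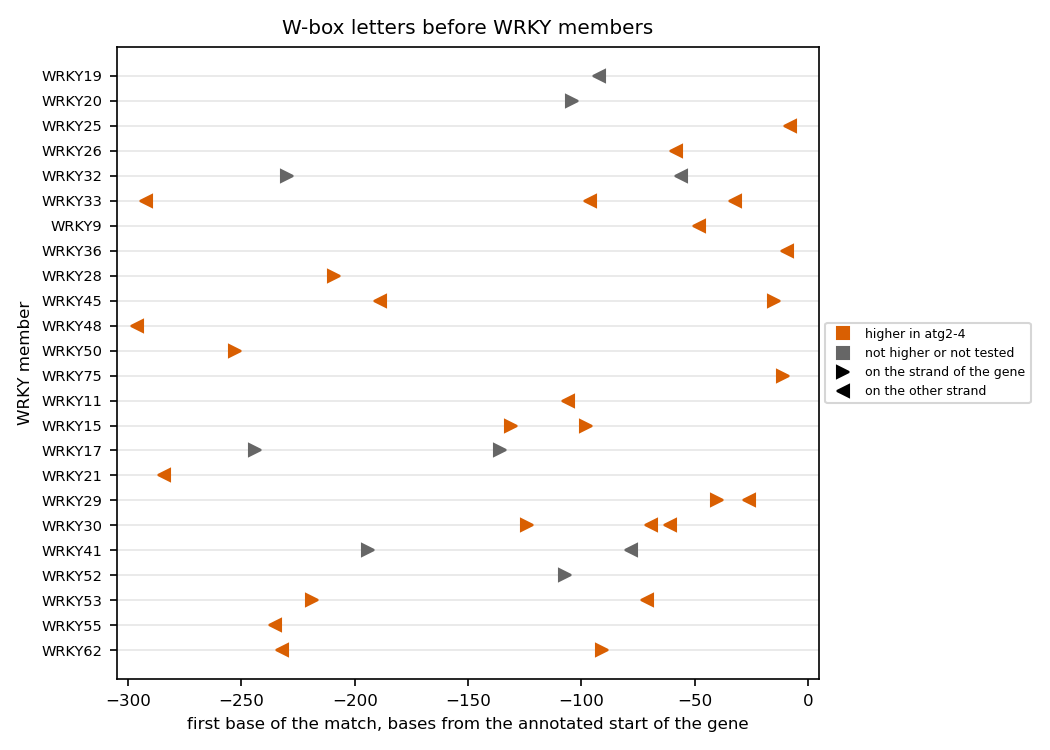
Positions of W-box letters (TTGACC or TTGACT, either strand) in the 300 bases before the annotated start of the 24 members that hold any; the x axis is the distance of the first base from that start in bases, each row is 1 member, and triangles point right for the strand of the gene and left for the other strand. WRKY33 and WRKY30 hold 3 matches, the farthest match of WRKY30 begins at -124, and orange marks members that were higher in atg2-4 than in Col-0.

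The libraries held 14482397 to 18692184 fragments, and 19705 to 19923 genes stood at 1 FPKM or more. LON2 RNA averaged 25.9 ± 1.6 FPKM for Col-0, 22.3 ± 0.84 for atg2-4, 11.6 ± 0.47 for lon2-8 and 4.78 ± 0.50 for the double mutant (mean ± SD, n = 3), lowest in the groups whose columns name lon2-8. ATG2 RNA was 7.71 ± 0.13, 6.31 ± 0.34, 7.58 ± 0.51 and 6.59 ± 0.43 FPKM in the same order, a smaller difference. Markers fit a mixture of shoot and root: all 4 leaf mesophyll, 5 root, 3 guard cell and 2 phloem genes listed were detected. The summed level of the root list was 1401 to 1443 FPKM in Col-0, 955 to 1021 in atg2-4, 2044 to 2207 in lon2-8 and 1037 to 1089 in the double mutant, carried mainly by PYK10, an abundant root glucosidase. From Col-0 to atg2-4, mean PYK10 fell from 1143 to 652 FPKM. The means of CASP1 (60.7 to 72.5), NRT2.1 (196 to 236) and EXPA7 (13.2 to 16.4) went up, and that of COBL9 changed little (9.27 to 9.04). From Col-0 to lon2-8 the means of all 5 root genes went up. They were 1143 to 1773 for PYK10, 60.7 to 65.1 for CASP1, 196 to 240 for NRT2.1, 9.27 to 11.5 for COBL9 and 13.2 to 20.8 for EXPA7. Libraries of CASP1 and of COBL9 overlapped between these groups. The 2 senescence markers in the table, NYE1 and the barely detected SAG13, summed to 8.44 to 9.69 FPKM in Col-0, 30.6 to 32.3 in atg2-4, 8.21 to 9.72 in lon2-8 and 27.4 to 28.4 in the double mutant. SAG12 was not analysed here. Both sums therefore moved with genotype beside the results on WRKY genes, that of the root list mainly through PYK10. The part of either list in those results was not tested.

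Levels of different members were compared per kilobase of exon, because the deposited FPKM counts introns in the length of a gene. In Col-0 the highest member was WRKY33, which is needed for resistance to necrotrophic fungi, at 49.8 ± 2.7 on this depth-scaled measure. WRKY15, a regulator of leaf growth and mitochondrial stress responses, followed at 49.3 ± 1.5, within the spread of WRKY33, and WRKY65 at 43.99 ± 0.56. A step then led to WRKY11 at 29.8 ± 0.060, a repressor of resistance to bacteria, and 7 members were under 1 on this scale. WRKY55 (0.0666 ± 0.033), WRKY59 (0.107 ± 0.14) and WRKY62 (0.203 ± 0.17) were the lowest. In atg2-4, WRKY15 led at 82.4 ± 2.3, and WRKY59 had moved from rank 58 to rank 4 of 59, at 40.4 ± 2.1. Introns fill most of that gene, and its FPKM as deposited is 2.51 times lower than on this scale. In lon2-8 the order of the first 3 was WRKY65 (50.8 ± 0.60), WRKY15 (44.05 ± 0.94) and WRKY17 (30.7 ± 0.96).

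Much of the family was higher in atg2-4, the ATG2 mutant. Against Col-0, 33 of the 55 members tested were higher in atg2-4 and 5 were lower, where 21.3% of all 20662 tested genes were called higher and 27.2% lower (48.5% in either direction). Changes of at least 2-fold passed in 11 members and in 3.92% of all genes. Called means an adjusted p under 0.05 from limma, fitted to log2(FPKM + 1) over all 12 libraries, and log2 changes on that scale are given ± SE. A change of at least 2-fold means a log2 change of at least 1 on that scale, which understates fold changes of low genes. The summed level of the 59 members was 766 to 772 FPKM in the atg2-4 libraries and 541 to 559 FPKM in those of Col-0. The median log2 change was 0.33 over the members tested and -0.05 over all genes tested. A group of 6 members, WRKY8, WRKY38, WRKY51, WRKY55, WRKY59 and WRKY62, lay under 1 FPKM in every Col-0 and lon2-8 library and could enter the test only by being higher with atg2-4. Without genes of that kind, on either side, 27 of 49 members were higher (55.1%, against 20.5% of all remaining genes), the medians were 0.23 and -0.05, and changes of at least 2-fold passed in 6 members, beside 3.16% of the remaining genes. In whole seedlings, a change in the number of cells that express a gene and a change in RNA per cell cannot be told apart.

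**Figure D2:**
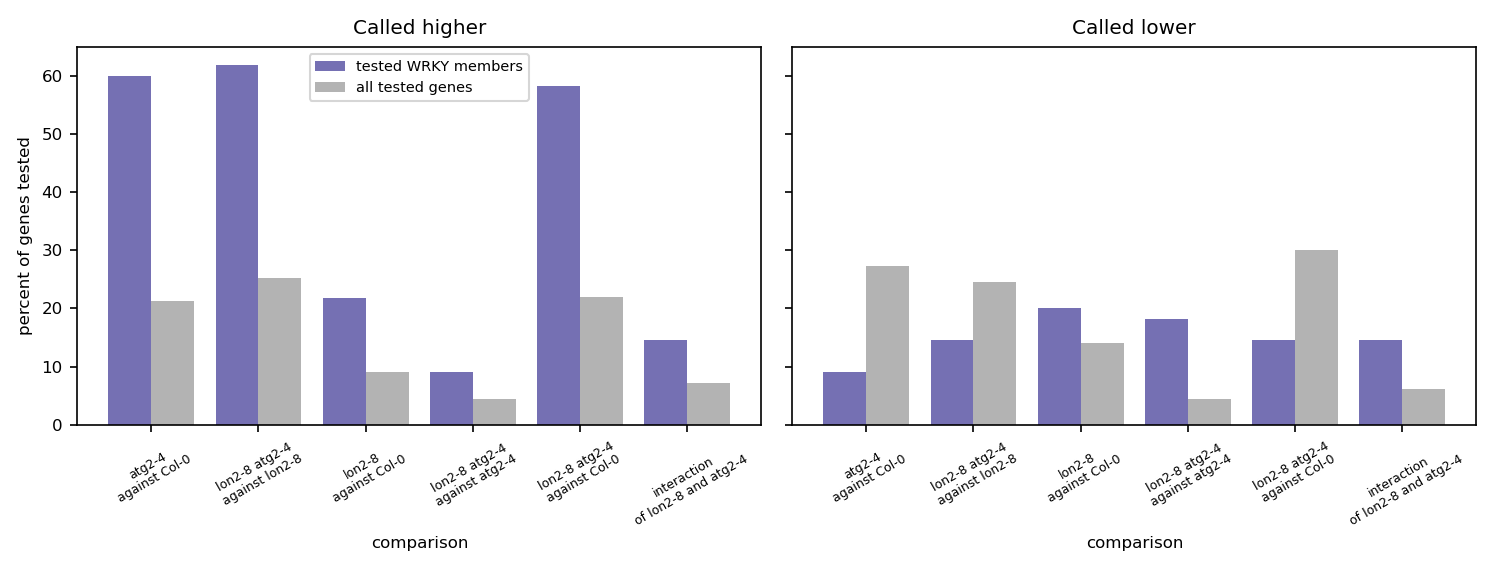
Percent of tested genes called higher (left) and lower (right) in each of the 6 comparisons; purple bars are the 55 tested WRKY members, grey bars all 20662 tested genes, and both y axes start at 0. The share of members called higher stands well above that of all genes in the comparisons that add atg2-4 (33 of 55 in Col-0 and 34 of 55 in lon2-8).

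Counts by structural group, given next, stand beside 21.3% of all tested genes called higher and 27.2% called lower in atg2-4. In group III, 8 of the 9 members tested rose in atg2-4, or 5 of 6 without WRKY38, WRKY55 and WRKY62, which could enter the test only by rising. WRKY52, which is also the immune receptor RRS1, was the exception at a log2 change of -0.09. WRKY46, WRKY54 and WRKY70, partly redundant factors of salicylic acid and brassinosteroid signalling, are described first. WRKY46 (AT2G46400, chr2:19043411-19044955, minus strand) read 1.66, 1.79 and 1.80 FPKM across the Col-0 libraries and 14.8, 17.2 and 17.4 across those of atg2-4. Its lon2-8 libraries read 1.91, 1.79 and 1.62 and its double mutant libraries 14.1, 13.5 and 13.01. All 6 libraries with atg2-4 were far above all 6 without it. Its log2 change in atg2-4 was 2.66 ± 0.068 (adjusted p = 3.78e-12), a 9.41-fold higher mean FPKM.

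WRKY70 (AT3G56400, chr3:20908711-20910623, minus strand) read 6.67, 6.46 and 5.77 FPKM across the Col-0 libraries and 26.9, 26.8 and 25.9 across those of atg2-4. Its lon2-8 libraries read 3.06, 2.56 and 2.33, and its double mutant libraries 16.2, 17.2 and 16.4. No 2 of the 4 groups overlapped, and the order ran from lon2-8 through Col-0 and the double mutant to atg2-4. The log2 change was 1.92 ± 0.070 (adjusted p = 1.41e-10) for atg2-4 and -1.003 ± 0.070 (adjusted p = 4.92e-07) for lon2-8, each against Col-0. WRKY54 (AT2G40750, chr2:17000419-17002528, minus strand) stood at 1.16, 1.00 and 0.866 FPKM across the Col-0 libraries, 6.48, 6.29 and 6.495 across those of atg2-4, 1.13, 0.567 and 1.03 across those of lon2-8 and 4.77, 4.69 and 4.43 across those of the double mutant. Groups with and without atg2-4 were apart, and those of Col-0 and lon2-8 overlapped. The log2 change in atg2-4 was 1.89 ± 0.10 (adjusted p = 8.16e-09).

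WRKY55 (AT2G40740, chr2:16997078-16999499, plus strand), reported to promote salicylic acid and reactive oxygen accumulation in ageing leaves, is the neighbour of WRKY54, with 919 bases and no annotated gene between their ends. The Col-0 libraries held 1, 1 and 2 fragments of it and those of lon2-8 3, 1 and 3, which is near the limit of detection. In atg2-4 it stood at 2.39, 2.77 and 1.84 FPKM and in the double mutant at 3.40, 2.79 and 2.73. The groups with atg2-4 overlapped each other and lay above all other libraries. On the log2(FPKM + 1) scale, which understates changes of low genes, WRKY55 rose by 1.68 ± 0.11 (adjusted p = 5.48e-08) in atg2-4.

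WRKY38 and WRKY62 are related repressors of basal defence. WRKY38 (AT5G22570, chr5:7495455-7496990, minus strand) was measured at 0.349, 0.671 and 0.452 FPKM across the Col-0 libraries, 4.43, 3.15 and 4.80 across those of atg2-4, 0.754, 0.425 and 0.363 across those of lon2-8 and 1.99, 1.86 and 2.37 across those of the double mutant. The double mutant lay between atg2-4 and the groups without atg2-4, with no overlap. WRKY62 (AT5G01900, chr5:350925-352095, minus strand) was measured at 0.356, 0.0463 and 0.162 FPKM across the Col-0 libraries, 1.27, 1.65 and 2.02 across those of atg2-4, 0.110, 0.139 and 0.143 across those of lon2-8 and 1.46, 1.43 and 0.882 across those of the double mutant. Its atg2-4 and double mutant libraries overlapped, above the rest. The log2 changes in atg2-4 were 1.77 ± 0.14 (adjusted p = 3.31e-07) for WRKY38 and 1.16 ± 0.14 (adjusted p = 2.02e-05) for WRKY62.

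WRKY53 (AT4G23810, chr4:12392370-12393982, minus strand), which promotes leaf senescence, stood at 13.8, 14.95 and 15.6 FPKM across the Col-0 libraries, 25.1, 22.8 and 21.6 across those of atg2-4, 7.93, 9.47 and 8.95 across those of lon2-8 and 18.5, 18.4 and 19.3 across those of the double mutant. No groups overlapped and lon2-8 was lowest. Its log2 change was 0.61 ± 0.067 (adjusted p = 7.15e-06) in atg2-4. The end of WRKY53 shares 341 bases with 3xHMG-box2 on the other strand, which had a log2 change of -0.46 (adjusted p = 0.000167) in atg2-4, opposite in sign to that of WRKY53. In lon2-8 against Col-0, 3xHMG-box2 was also lower (-0.26, adjusted p = 0.0198), the same sign as WRKY53 there. Its part in the WRKY53 values was not tested. WRKY30, which responds to reactive oxygen and early leaf ageing, rose less, from 1.38 ± 0.25 to 1.98 ± 0.20 FPKM, a log2 change of 0.33 ± 0.10 (adjusted p = 0.0191).

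**Figure D3:**
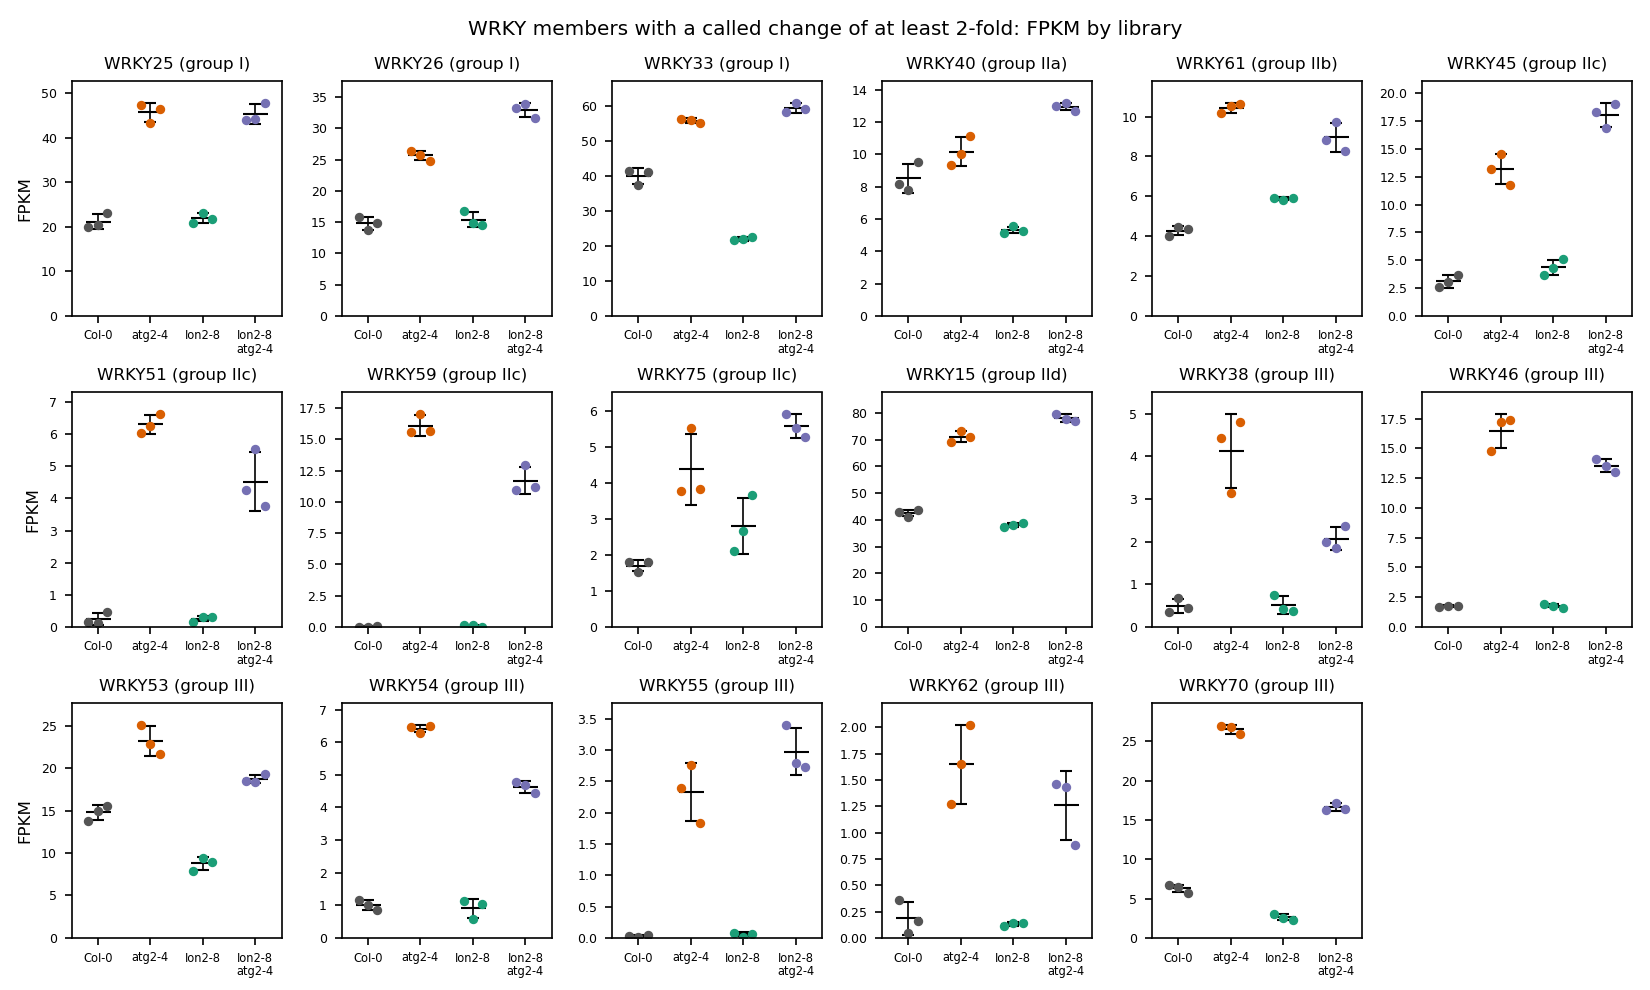
FPKM of the 17 members with a called change of at least 2-fold in any comparison, ordered by structural group; each panel is 1 member with its own y axis from 0, dots are the 3 libraries of each genotype, and bars give the mean and SD. In WRKY46, WRKY51, WRKY54, WRKY55, WRKY59 and WRKY62 the groups with atg2-4 stand above the others and Col-0 overlaps lon2-8, while WRKY33, WRKY40, WRKY53 and WRKY70 are lowest in lon2-8.

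In group IIc, 8 of 12 members tested rose in atg2-4 and 1 fell, and 5 of 9 rose without WRKY8, WRKY51 and WRKY59, which could enter the test only by rising. WRKY59 (AT2G21900, chr2:9333844-9336278, minus strand) had the largest log2 change of the family. The Col-0 libraries held 1, 0 and 4 fragments of it, those of lon2-8 5, 7 and 1, those of atg2-4 635, 601 and 694 and those of the double mutant 498, 563 and 450. The corresponding levels were 15.6, 17.05 and 15.7 FPKM in atg2-4 and 10.9, 12.9 and 11.2 in the double mutant. It was thus close to absent without the atg2-4 allele, and the groups that carry it did not overlap each other. On the log2(FPKM + 1) scale the change in atg2-4 was 4.04 ± 0.080 (adjusted p = 4.01e-13).

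WRKY51 (AT5G64810, chr5:25908247-25909881, plus strand), which acts in the repression of jasmonate responses by salicylic acid, was at 0.146, 0.133 and 0.463 FPKM across the Col-0 libraries, 6.02, 6.25 and 6.63 across those of atg2-4, 0.157, 0.299 and 0.307 across those of lon2-8 and 4.26, 5.54 and 3.75 across those of the double mutant. All libraries with atg2-4 were above all those without. Its log2 change in atg2-4 was 2.56 ± 0.13 (adjusted p = 2.95e-09), and that of WRKY50, its close relative with the same reported role, was 0.34 ± 0.10 (adjusted p = 0.016). WRKY45 (AT3G01970, chr3:325952-327412, minus strand), an activator of the phosphate transporter gene PHT1;1 and of leaf senescence, was at 2.57, 3.08 and 3.71 FPKM across the Col-0 libraries, 13.2, 14.6 and 11.8 across those of atg2-4, 3.70, 4.31 and 5.08 across those of lon2-8 and 18.3, 16.9 and 18.99 across those of the double mutant. Its level was highest in the double mutant, and Col-0 overlapped lon2-8. For WRKY45 the atg2-4 allele gave a log2 change of 1.79 ± 0.11 (adjusted p = 2.88e-08).

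WRKY75 (AT5G13080, chr5:4149738-4151201, minus strand), a factor of phosphate starvation and leaf senescence, was at 1.79, 1.52 and 1.81 FPKM across the Col-0 libraries, 3.79, 5.52 and 3.84 across those of atg2-4, 2.11, 2.67 and 3.66 across those of lon2-8 and 5.92, 5.54 and 5.27 across those of the double mutant. Only the atg2-4 and double mutant libraries overlapped, since 1 atg2-4 library was as high as the double mutant. The log2 change in atg2-4 was 0.98 ± 0.14 (adjusted p = 8.24e-05). The other members of group IIc that rose were WRKY8, WRKY28 and WRKY48, by log2 changes of 0.52, 0.45 and 0.54. WRKY28 is reported to activate the salicylic acid synthesis gene ICS1, and WRKY48 to repress basal defence. WRKY57, a factor of drought tolerance, fell from 7.36 ± 0.50 to 5.54 ± 0.27 FPKM, a log2 change of -0.35 ± 0.065 (adjusted p = 0.000581).

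In group I, 4 of 11 members rose in atg2-4 and 2 fell. WRKY25 (AT2G30250, chr2:12903208-12905338, minus strand) and WRKY26 (AT5G07100, chr5:2204206-2205965, plus strand) act with WRKY33 in heat tolerance. WRKY25 was at 19.9, 20.5 and 23.05 FPKM across the Col-0 libraries, 47.4, 43.4 and 46.5 across those of atg2-4, 20.97, 23.2 and 21.7 across those of lon2-8 and 43.95, 44.3 and 47.9 across those of the double mutant. Its values fell into a lower pair of genotypes without atg2-4 and an upper pair with it. The log2 change in atg2-4 was 1.08 ± 0.059 (adjusted p = 7.96e-09), and that between the double mutant and atg2-4 was -0.01 ± 0.059 (adjusted p = 0.931).

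WRKY26 was at 15.8, 13.8 and 14.9 FPKM across the Col-0 libraries, 26.3, 25.8 and 24.8 across those of atg2-4, 16.8, 14.8 and 14.6 across those of lon2-8 and 33.2, 33.9 and 31.7 across those of the double mutant. Unlike WRKY25, its double mutant libraries were all above those of atg2-4, by a log2 change of 0.35 ± 0.059 (adjusted p = 0.00302). WRKY33 (AT2G38470, chr2:16108235-16110766, plus strand) was at 41.4, 37.4 and 40.98 FPKM across the Col-0 libraries, 56.3, 55.9 and 54.97 across those of atg2-4, 21.5, 21.9 and 22.5 across those of lon2-8 and 58.1, 60.8 and 58.9 across those of the double mutant. No groups overlapped, lon2-8 was lowest and the double mutant highest, although the last step, from atg2-4 to the double mutant, did not pass (0.09 ± 0.040, adjusted p = 0.206). The log2 change in atg2-4 was 0.47 ± 0.040 (adjusted p = 6.47e-07).

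The annotation places AT2G08965, a gene on the other strand, over 272 bases of WRKY33, and the deposited values hold 39.6 ± 4.6, 58.9 ± 3.6, 23.3 ± 2.2 and 57.9 ± 2.6 FPKM for it in Col-0, atg2-4, lon2-8 and the double mutant. These levels track those of WRKY33, and without a stated use of strand the reads of the 2 genes cannot be told apart. WRKY4 rose by a log2 change of 0.20. WRKY44, known as TTG2, a factor of trichome and seed coat formation, fell from 2.27 ± 0.28 to 1.01 ± 0.072 FPKM. Its log2 change of -0.70 ± 0.097 (adjusted p = 6.39e-05) was the largest fall in atg2-4 among the members tested. WRKY1 fell by a log2 change of -0.16.

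All 3 members of group IIa, WRKY18, WRKY40 and WRKY60, which bind each other and restrain basal defence, were higher in atg2-4. WRKY18 rose from 14.5 ± 0.99 to 24.9 ± 1.1 FPKM and WRKY60 from 9.47 ± 0.64 to 14.6 ± 0.70, log2 changes of 0.74 ± 0.049 (adjusted p = 5.56e-08) and 0.57 ± 0.057 (adjusted p = 3.24e-06). WRKY40 (AT1G80840, chr1:30383561-30385499, plus strand) was at 8.15, 7.83 and 9.56 FPKM across the Col-0 libraries, 9.36, 10.01 and 11.1 across those of atg2-4, 5.14, 5.55 and 5.26 across those of lon2-8 and 12.97, 13.2 and 12.7 across those of the double mutant. Its Col-0 and atg2-4 libraries overlapped, lon2-8 was below both and the double mutant above both. The log2 change in atg2-4, 0.23 ± 0.072 (adjusted p = 0.0168), missed the threshold when Col-0 library 1, Col-0 library 2 or atg2-4 library 3 was left out (adjusted p 0.059 to 0.078). Among the other members called in atg2-4 against Col-0, WRKY1, WRKY30 and WRKY50 missed it under 2 alternative fits each and WRKY36 under 1.

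In group IIb, 5 of 6 members tested rose in atg2-4. WRKY61 (AT1G18860, chr1:6508797-6511397, plus strand) was at 4.01, 4.44 and 4.36 FPKM across the Col-0 libraries, 10.2, 10.5 and 10.6 across those of atg2-4, 5.93, 5.81 and 5.89 across those of lon2-8 and 8.85, 9.72 and 8.29 across those of the double mutant. No groups overlapped, and Col-0 was lowest. For WRKY61 the atg2-4 allele gave a log2 change of 1.12 ± 0.058 (adjusted p = 4.99e-09). AT1G05447, which shares 216 bases with it on the other strand, had a log2 change of 1.19 (adjusted p = 0.000555), and its part in the WRKY61 values was not tested. The others were WRKY6, a factor of senescence and phosphate and boron supply, WRKY9, WRKY31 and WRKY36, with log2 changes of 0.48, 0.69, 0.35 and 0.18.

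In group IId, 3 of 6 tested rose in atg2-4. WRKY15 (AT2G23320, chr2:9924886-9926372, plus strand) was at 43.1, 41.2 and 43.5 FPKM across the Col-0 libraries, 69.1, 73.1 and 71.1 across those of atg2-4, 37.2, 38.1 and 38.8 across those of lon2-8 and 79.7, 77.9 and 76.9 across those of the double mutant. No groups overlapped, and the order was that of WRKY33. For WRKY15 the atg2-4 allele gave a log2 change of 0.73 ± 0.034 (adjusted p = 2.09e-09). WRKY11 and WRKY21 rose by 0.24 and 0.48, while WRKY17, the close relative of WRKY11 with the same role, was at 19.7 ± 0.56 FPKM in Col-0 and 19.3 ± 0.74 in atg2-4. In group IIe, WRKY14 and WRKY29 rose and WRKY65 and WRKY69 fell, among 8 members. These shares, 25% each, were near the 21.3% higher and 27.2% lower of all tested genes. WRKY29, a factor of flagellin responses, went from 11.3 ± 0.43 to 20.2 ± 0.88 FPKM, a log2 change of 0.79 ± 0.058 (adjusted p = 1.72e-07). WRKY65 went from 41.4 ± 0.53 to 32.9 ± 2.0 FPKM, a log2 change of -0.32 ± 0.042 (adjusted p = 3.7e-05). WRKY69 shares 345 and 373 bases with 2 genes on the other strand, both of which were also called lower in atg2-4.

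Members that did not pass in any of the 6 comparisons were WRKY23, WRKY24, WRKY27, WRKY39 and WRKY56. WRKY39 was at 17.2 ± 1.1 FPKM for Col-0, 18.6 ± 0.37 for atg2-4, 17.9 ± 0.63 for lon2-8 and 18.7 ± 1.2 for the double mutant, and its log2 change in atg2-4 was 0.11 ± 0.054 (adjusted p = 0.118). WRKY27 was at 9.35 ± 1.1, 8.74 ± 0.40, 8.98 ± 1.0 and 8.55 ± 0.53 FPKM in the same order. WRKY23, whose gene responds to auxin in the root, WRKY24 and WRKY56 had group means between 0.756 and 2.03 FPKM, where few fragments limit the precision. The 4 members that were not tested had group means of 0.130 to 0.988 FPKM.

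W-box letters were counted again by the change in atg2-4, as a description. At least 1 match lay before 18 of the 33 that rose (54.5%) and before 5 of the 22 others tested (22.7%), beside 32.1% of all genes. The 33 include WRKY8, WRKY38, WRKY51, WRKY55, WRKY59 and WRKY62, which could enter the test only by being higher with atg2-4. Of these, WRKY55 and WRKY62 held a match, and all but WRKY8 are also among the 17 members counted next. Of the 17 members with a called change of at least 2-fold, 9 held a match (52.9%). Among those without one were WRKY46, WRKY51, WRKY54, WRKY59 and WRKY70, which had 5 of the 6 largest log2 changes with atg2-4 in Col-0.

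The same allele was then compared in the lon2-8 background, between libraries that the first comparison did not use. In the double mutant, 34 of the 55 members were higher than in lon2-8 and 8 were lower, where 25.3% and 24.6% of all tested genes were (49.9% in either direction). Changes of at least 2-fold passed in 14 members and in 4.13% of all genes. The median log2 change was 0.39 over the members tested and -0.01 over all genes. Without genes that could pass on 1 side alone, 28 of 49 members were higher (57.1%, against 24.5% of all remaining genes), the medians were 0.22 and -0.01, and 10 members changed by at least 2-fold, beside 3.46% of the remaining genes. The members higher in both backgrounds numbered 28, which is 84.8% of those higher in Col-0 and 82.4% of those higher in lon2-8. Over all tested genes the same shares were 78.0% and 65.8%. Without genes that could pass on 1 side alone, 22 members were higher in both (81.5% and 78.6%), beside 77.0% and 64.4% of the remaining genes. WRKY44, WRKY57, WRKY65 and WRKY69 were lower in both. WRKY36 alone was called in opposite directions, 0.18 ± 0.051 (adjusted p = 0.0129) in Col-0 and -0.16 ± 0.051 (adjusted p = 0.0223) in lon2-8.

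The largest changes with atg2-4 in the lon2-8 background were again those of WRKY59 (3.52), WRKY46 (2.39), WRKY70 (2.27) and WRKY51 (2.13). The difference between backgrounds is the interaction tested further on, and the values below belong to members that passed it. WRKY33 changed by 1.39 ± 0.040 (adjusted p = 1.46e-11) and WRKY40 by 1.14 ± 0.072 (adjusted p = 2.9e-08), from lon2-8 levels below those of Col-0. WRKY53, WRKY15 and WRKY26 changed by 1.01, 1.02 and 1.05. The change of WRKY38 was 1.03 ± 0.14 (adjusted p = 4.61e-05) and that of WRKY61 0.53 ± 0.058 (adjusted p = 6.26e-06), beside 1.77 and 1.12 in Col-0.

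**Figure D4:**
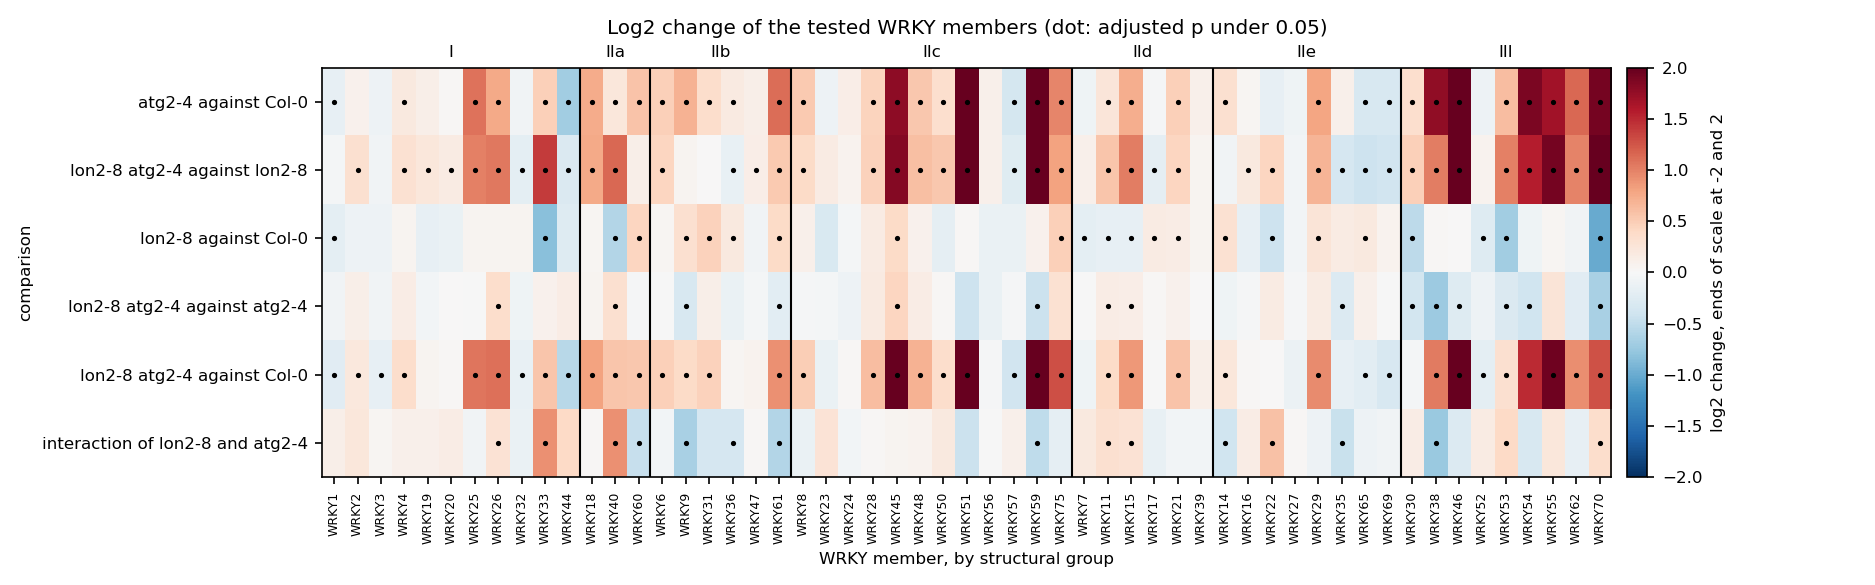
Log2 change on the log2(FPKM + 1) scale of the 55 tested members (columns, by structural group) in the 6 comparisons (rows); red is higher and blue lower in the first-named genotype, the colour scale ends at -2 and 2, and a dot marks an adjusted p under 0.05. The rows that add atg2-4 are mostly red in groups IIa, IIc and III, while the rows that add lon2-8 are paler, with WRKY33, WRKY40, WRKY53 and WRKY70 blue in lon2-8 against Col-0.

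The lon2-8 mutant, without the atg2-4 allele, differed from Col-0 in 23 members. Of the 55, 12 were higher in lon2-8 and 11 were lower, where 9.06% and 14.1% of all tested genes were (23.1% in either direction). Without Col-0 library 2 the members higher numbered 7. The medians were 0.02 for the members and -0.04 for all genes. Of the called changes, 1 reached 2-fold on the log2(FPKM + 1) scale, that of WRKY70, as did 0.557% of all genes. By mean FPKM the fall of WRKY30 did so too, with a deposited log2 fold change of -1.07. The summed level of the family was 520 to 529 FPKM in lon2-8, under the 541 to 559 FPKM of Col-0.

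The members that fell in lon2-8 were WRKY1, WRKY7, WRKY11, WRKY15, WRKY22, WRKY30, WRKY33, WRKY40, WRKY52, WRKY53 and WRKY70, among which group III gave 4 of its 9 tested. The largest were WRKY70 (-1.003 ± 0.070, adjusted p = 4.92e-07), WRKY33 (-0.83 ± 0.040, adjusted p = 2.37e-08), WRKY53 (-0.69 ± 0.067, adjusted p = 1.01e-05) and WRKY40 (-0.59 ± 0.072, adjusted p = 7.24e-05). In these 4 members every lon2-8 library was below every Col-0 library, as their values above show. WRKY30 went from 1.38 ± 0.25 to 0.658 ± 0.13 FPKM (-0.52 ± 0.10, adjusted p = 0.00312), and WRKY22, a factor of flagellin responses like WRKY29, from 16.4 ± 1.3 to 12.1 ± 1.7 (-0.42 ± 0.075, adjusted p = 0.00158). WRKY46 and WRKY54, which rose with WRKY70 in atg2-4, stood at 1.78 ± 0.15 and 0.908 ± 0.30 FPKM in lon2-8 beside 1.75 ± 0.077 and 1.01 ± 0.15 in Col-0, and neither passed.

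The members that rose in lon2-8 were WRKY9, WRKY14, WRKY17, WRKY21, WRKY29, WRKY31, WRKY36, WRKY45, WRKY60, WRKY61, WRKY65 and WRKY75, 4 of them from group IIb. The largest were WRKY75 (0.48 ± 0.14, adjusted p = 0.028), WRKY31 (0.46 ± 0.095, adjusted p = 0.00364), WRKY60 (0.43 ± 0.057, adjusted p = 0.000155) and WRKY61 (0.38 ± 0.058, adjusted p = 0.000396). All were under 2-fold. The changes of WRKY75, WRKY45 and WRKY21 missed the threshold in 5 alternatives each, mostly with 1 library of Col-0 or lon2-8 left out. WRKY29 rose from 11.3 ± 0.43 to 13.8 ± 1.3 FPKM, and GH9B15, which shares 251 bases with it on the other strand, from 0.969 ± 0.22 to 7.76 ± 0.30 FPKM. In atg2-4, where WRKY29 also rose, GH9B15 was at 0.747 ± 0.14 FPKM.

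In the atg2-4 background, lon2-8 changed 15 members. The double mutant was higher than atg2-4 in 5 members and lower in 10, where 4.44% of all tested genes were called in each direction (8.88% in either). The medians were -0.02 for members and for all genes, and 0 members passed at 2-fold or more, beside 0.106% of all genes. WRKY11, WRKY15, WRKY26, WRKY40 and WRKY45 were higher. Those lower were WRKY9, WRKY30, WRKY35, WRKY38, WRKY46, WRKY53, WRKY54, WRKY59, WRKY61 and WRKY70, of which 6 belong to group III. WRKY38 changed by -0.73 ± 0.14 (adjusted p = 0.00665) and WRKY70 by -0.64 ± 0.070 (adjusted p = 0.000138), the largest 2 changes. With 1 library left out these counts ranged from 2 to 5 and from 5 to 10, and 3 of the 15 calls, those of WRKY26, WRKY38 and WRKY70, kept their side of the threshold under every alternative.

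Across both backgrounds, which share no libraries, WRKY30, WRKY53 and WRKY70 were lower with lon2-8 and WRKY45 was higher. WRKY9 and WRKY61 were higher with lon2-8 in Col-0 and lower with it in atg2-4, and WRKY11, WRKY15 and WRKY40 the opposite. Among these members, only the call of WRKY70 in the atg2-4 background held under every alternative. The others there were lost under 15 alternatives for WRKY61, 13 for WRKY30 and 7 for WRKY15. For WRKY11 and WRKY45 it was 6 each, for WRKY53 3, and for WRKY9 and WRKY40 1 each. The call of WRKY45 in Col-0 was lost under 5. The double mutant itself differed from Col-0 in 40 members, 32 higher and 8 lower, where 22% and 30.1% of all tested genes were (52% in either direction). Changes of at least 2-fold passed in 11 members and in 4.23% of all genes. The medians were 0.36 for the members and -0.05 for all genes, and the family sum was 767 to 782 FPKM. Without genes that could pass on 1 side alone, 26 of 49 members were higher (53.1%, against 21.2% of the remaining genes), the medians were 0.23 and -0.06, and 7 members changed by at least 2-fold, beside 3.58%. The largest change was that of WRKY59 (3.60), followed by WRKY46 (2.40), WRKY45 (2.22) and WRKY51 (2.14). Those lower were WRKY1, WRKY3, WRKY32, WRKY44, WRKY52, WRKY57, WRKY65 and WRKY69, led by WRKY44 (-0.55 ± 0.097, adjusted p = 0.000368). The call of WRKY3 was lost under 4 alternatives and that of WRKY32 under 6.

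Whether the lon2-8 effect differed between backgrounds was tested with the interaction, the log2 change between the double mutant and atg2-4 minus that between lon2-8 and Col-0. Of the 55 members, 8 passed above 0 and 8 below, where 7.10% and 6.08% of all tested genes did (13.2% in either direction), and 0 members passed with a difference of 2-fold or more, beside 0.697% of all genes. The medians were 0.02 for the members and 0.03 for all genes. Above 0 stood WRKY33 (0.92 ± 0.057, adjusted p = 9.63e-07), WRKY40 (0.91 ± 0.10, adjusted p = 7.87e-05) and WRKY22 (0.59 ± 0.11, adjusted p = 0.00297), which were lower in lon2-8 than in Col-0 and near or above the atg2-4 level in the double mutant. WRKY53, WRKY70, WRKY11, WRKY26 and WRKY15 followed, at 0.40 to 0.29, of which WRKY26 and WRKY70 missed the threshold under 9 alternatives each. Below 0 stood WRKY38 (-0.75 ± 0.20, adjusted p = 0.0257), WRKY9 (-0.64 ± 0.095, adjusted p = 0.000742), WRKY61 (-0.59 ± 0.082, adjusted p = 0.000472), WRKY59 (-0.51 ± 0.11, adjusted p = 0.00993), WRKY60, WRKY35, WRKY14 and WRKY36. The call was lost under 9 alternatives for WRKY38, 3 for WRKY35 and 2 for WRKY59. WRKY60 averaged 9.47 ± 0.64 FPKM for Col-0, and 14.6 ± 0.70, 13.1 ± 0.77 and 14.2 ± 0.48 for atg2-4, lon2-8 and the double mutant, each above Col-0. WRKY9 was at 5.13 ± 0.34, 8.91 ± 0.30, 6.69 ± 0.61 and 6.97 ± 0.36 FPKM in that order. WRKY46 and WRKY51, with large changes in atg2-4, had interactions of -0.27 ± 0.096 (adjusted p = 0.0818) and -0.43 ± 0.18 (adjusted p = 0.136), which did not pass.

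**Figure D5:**
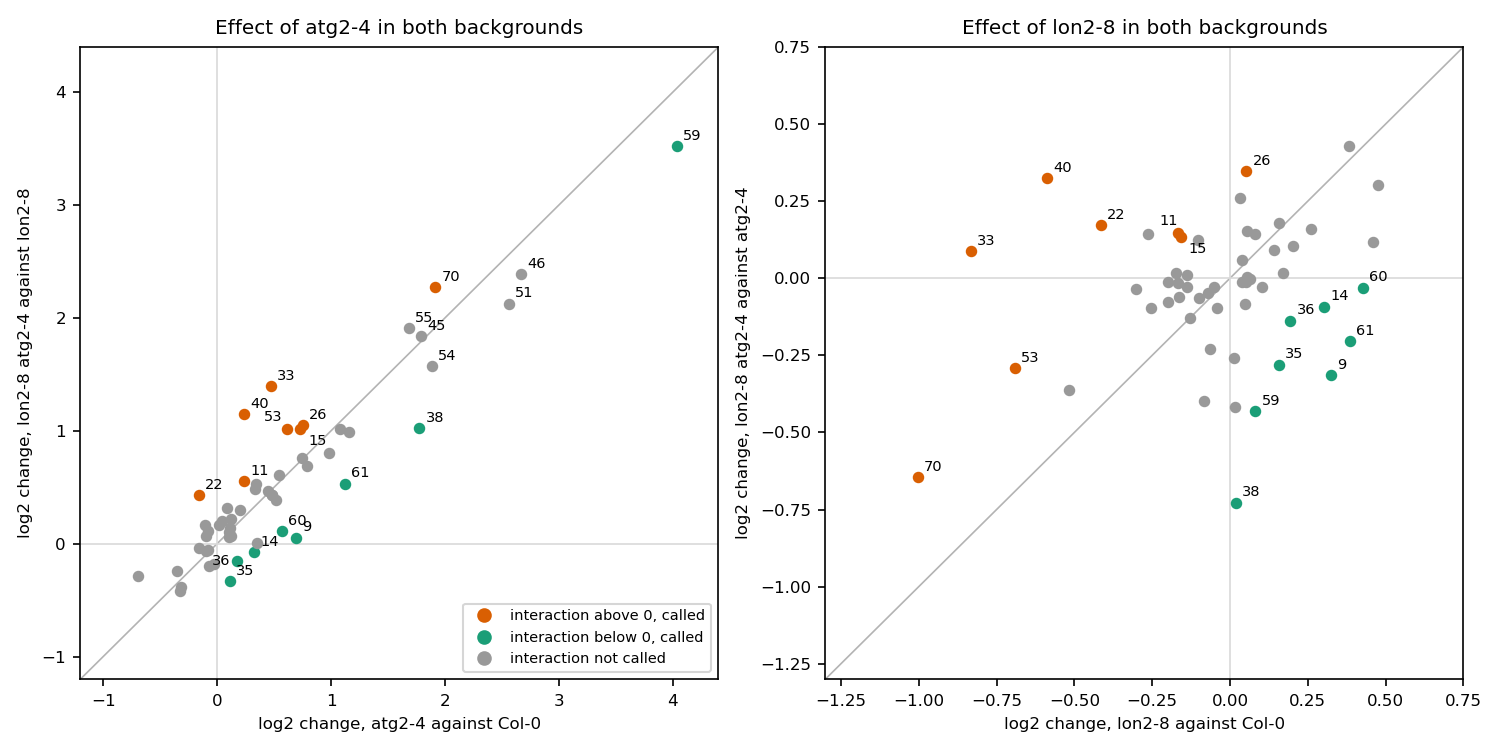
Log2 change of the 55 tested members with atg2-4 (left) and with lon2-8 (right), in Col-0 on the x axis and in the other mutant background on the y axis; each point is 1 member, the grey diagonal marks equal change, and numbers are WRKY names. Points above the diagonal with a called interaction (orange) include WRKY33 (0.92) and WRKY40 (0.91), and those below it (green) WRKY9 (-0.64) and WRKY61 (-0.59).

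Genes that act with WRKY proteins were read from 3 lists, chosen like the members with earlier results of these data known. Over all tested genes, the shares higher and lower were 21.3% and 27.2% for atg2-4, 9.06% and 14.1% for lon2-8, each against Col-0, and 25.3% and 24.6% for the double mutant against lon2-8. Of the MAP kinase cascade list, 12 of 13 genes were tested, and 9 rose and 0 fell in atg2-4, while 0 rose and 4 fell in lon2-8. In the double mutant 10 rose and 0 fell against lon2-8. Without MPK11, which could enter the test only by being higher with atg2-4, 8 of 11 rose in atg2-4. In the double mutant against lon2-8, 9 of 11 rose without it. The list's median log2 change in atg2-4 was 0.25, beside -0.05 for all genes. MPK3, the kinase that phosphorylates WRKY33, stood at 40.1, 40.03 and 40.5 FPKM across the Col-0 libraries, 54.1, 50.8 and 55.6 across those of atg2-4, 28.8, 28.1 and 27.5 across those of lon2-8 and 58.3, 57.3 and 55.8 across those of the double mutant. Its lon2-8 libraries were lowest and did not overlap any other group, as for WRKY33. Its interaction was 0.59 ± 0.053 (adjusted p = 1.5e-05). MPK6, its partner kinase, had a log2 change of 0.30 ± 0.039 (adjusted p = 3.36e-05) in atg2-4 and -0.04 ± 0.039 (adjusted p = 0.469) in lon2-8. MPK11 and the kinases MKK1 and MKK2 rose in atg2-4 by 1.72, 0.69 and 0.61.

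Of the 26 VQ motif genes, whose products bind WRKY proteins and alter their activity, 22 were tested. In atg2-4, 7 rose and 1 fell, in lon2-8, 1 rose and 7 fell, and in the double mutant against lon2-8, 14 rose and 4 fell. The 8 of 22 called in atg2-4 stand beside 48.5% of all tested genes called there, and 6 of 19 rose without genes that could pass on 1 side alone. Without such genes, 13 of 19 rose and 2 fell in the double mutant against lon2-8. The median log2 change of the list in atg2-4 was 0.08, beside -0.05 for all genes. SIB1, a partner of WRKY33, stood at 2.19 ± 0.10 FPKM for Col-0, 7.34 ± 0.091 for atg2-4, 1.52 ± 0.17 for lon2-8 and 6.17 ± 0.31 for the double mutant. VQ8 and VQ27 rose in atg2-4 by 2.38 and 1.70. JAV1, a repressor of jasmonate defence, and CAMBP25 fell in lon2-8, with log2 changes of -0.42 ± 0.047 (adjusted p = 3.29e-05) and -0.26 ± 0.049 (adjusted p = 0.00179), and both had a called interaction above 0, 0.40 and 0.70.

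Of 15 genes reported as direct WRKY targets, 12 rose and 1 fell in atg2-4, with a median log2 change of 1.5 beside -0.05 for all genes, and 6 rose and 1 fell in lon2-8. In the double mutant against lon2-8, 13 rose and 2 fell. CYP82C2, PBS3 and ALD1 could enter the test only by being higher with atg2-4. Without these 3 genes, 9 of 12 rose and 1 fell in atg2-4, with a median of 0.67. In the double mutant against lon2-8, 10 of 12 rose and 2 fell without them. CYP71A12, of indolic defence metabolism, was at 3.10, 3.22 and 3.14 FPKM across the Col-0 libraries, 109, 103 and 102 across those of atg2-4, 11.2, 11.5 and 14.3 across those of lon2-8 and 164, 166 and 149 across those of the double mutant. No groups overlapped, and lon2-8 lay above Col-0, where WRKY33 lay below it. CYP82C2, of the same metabolism, went from 0.0736 ± 0.061 to 77.9 ± 4.7 FPKM in atg2-4. The salicylic acid synthesis genes ICS1 and PBS3 changed by 1.90 and 4.49, and ALD1, of pipecolic acid synthesis, by 2.81, in atg2-4. The list's median interaction was -0.33, with 2 genes called above 0 and 6 below, where 7.10% and 6.08% of all tested genes were, and beside a median of 0.03 over all genes.

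The authors' deposited table for each of 4 comparisons lists adjusted p-values, without naming the test behind them. These tables cover all 59 members, so their counts include members that were not tested here. Under 0.05, the authors' deposited table calls 37 members higher and 6 lower in atg2-4, and 13 higher and 12 lower in lon2-8, where 46.1% and 26.6% of its genes are under that value. For the double mutant it calls 34 higher and 6 lower against Col-0, and 10 higher and 11 lower against atg2-4, in the authors' deposited table, where 50.7% and 10.9% of genes are. WRKY42 and WRKY74, not tested here, are among the members lower in atg2-4 and in the double mutant, each against Col-0. WRKY3, WRKY32, WRKY52 and WRKY65, called lower here in the double mutant against Col-0, are not under 0.05 there. Their deposited adjusted p-values are 0.192, 0.218, 0.0641 and 0.0711.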

How the data were processed

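The deposited expression values are FPKM for each gene in each library, and the authors also deposited, per the file headers, a false discovery rate (an adjusted p-value) and a log2 fold change for 4 comparisons. The submitters' processing notes name limma, edgeR, STAR 2.5.1a, Salmon 0.8.2, bcl2fastq, featureCounts 1.4.6-p5 and Subread, with no role for any. Genome build and strand use: not given in the sources used here. Once multiplied by the annotated span of the gene less 1 base, deposited FPKM gave whole fragments within 0.001 in all libraries for 26077 of 26093 genes. Introns were thus counted as length, the bounds are those of TAIR10.1, and levels of genes with long introns are understated. Depth was 14482397 to 18692184 fragments per library.

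Genes at 1 FPKM or more in at least 3 of 12 libraries (20662) were fitted as log2(FPKM + 1) with limma 3.58.1 in R 4.3.3, with 1 mean per genotype, a variance trend, two-sided tests and Benjamini-Hochberg adjustment over all genes tested in each comparison. The fit was tested on simulated data. Alternatives were a pseudocount of 0.1, no filter, a filter of 5 FPKM, median centring, only the groups compared, a replicate block, voom on recovered fragments, and leaving out each library. Members called at 2-fold or more are described by library, and from each list the 5 genes with the smallest adjusted p in any comparison are named. The members and gene lists were chosen with earlier results of these data known. Counting of WRKY domains in the proteins was not run.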

Additional observations from a re-analysis of the deposited data

Results flagged for a closer look

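For 16 members the effect of lon2-8 differed between the Col-0 and atg2-4 backgrounds by the interaction test of limma at an adjusted p under 0.05, given here as the log2 effect in atg2-4 minus that in Col-0. The values above 0 were 0.92 for WRKY33, 0.91 for WRKY40, 0.59 for WRKY22, 0.40 for WRKY53, 0.36 for WRKY70, 0.31 for WRKY11, 0.30 for WRKY26 and 0.29 for WRKY15. The values below 0 were -0.75 for WRKY38, -0.64 for WRKY9, -0.59 for WRKY61, -0.51 for WRKY59, -0.46 for WRKY60, -0.44 for WRKY35, -0.40 for WRKY14 and -0.33 for WRKY36. The calls of WRKY26, WRKY35, WRKY38, WRKY59 and WRKY70 were lost under at least 1 alternative, and those of the other 11 under none. For WRKY59 and WRKY38, both under 1 FPKM without atg2-4, the interaction missed the threshold with a pseudocount of 0.1 (adjusted p = 0.139 and 0.107) and with voom (0.108 and 0.107).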

How the results depend on the processing

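Of 174 calls of members over the 6 comparisons, 137 held under every alternative that tested the member and 37 were lost under at least 1, and none changed direction. All 37 calls of at least 2-fold held. The counts of members called stayed within 1.5 times under the alternatives other than leaving out a library, except in the double mutant against atg2-4, where members higher fell from 5 to 3 with only the groups compared, and members lower from 10 to 5 with a pseudocount of 0.1 and to 6 with only the groups compared. The cause was not tested. With each of the 12 libraries left out in turn, the members higher and lower ranged from 30 to 34 and 4 to 6 in atg2-4 against Col-0, 7 to 12 and 10 to 12 in lon2-8 against Col-0 (7 without Col-0 library 2), 30 to 32 and 6 to 8 in the double mutant against Col-0, 2 to 5 and 5 to 10 in the double mutant against atg2-4, 32 to 34 and 6 to 8 in the double mutant against lon2-8, and 6 to 8 and 7 to 8 for the interaction. All genes called in the double mutant against atg2-4 numbered 1835, and 1064 to 1856 with a library left out. With the replicate block, members higher and lower were 33 and 5 in atg2-4, 12 and 11 in lon2-8, 32 and 8 in the double mutant against Col-0, 4 and 7 against atg2-4, 34 and 8 against lon2-8, and 8 and 8 for the interaction. Same-numbered libraries had correlations of -0.057 to 0.049 and 6 of 12 libraries correlated best with their own number, so the numbers were not taken as pairs. Precision is limited by 3 libraries per group and, for members under 1 FPKM, by the few fragments counted.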
